A study of Mus musculus with 31 samples.

Results

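The genes described here are the Toll-like receptors (TLRs), the NOD-like receptors (NLRs) with Aim2, and the adaptors, kinases, caspases and gasdermin through which they signal. They were taken by gene symbol from the deposited count tables, and all 36 symbols of the list were found among the 55401 genes of each table. The study crossed APPswe/PS1dE9 transgenic mice (A+) with a knock-in line that carries the PLCγ2-P522R variant in the phospholipase PLCγ2, and sequenced polyA RNA from CD11b+ microglia of the whole brain and from temporo-occipital cortex at 13 months of age. The transgene encodes mutant APP and PS1 under the mouse prion protein promoter, the knock-in was made with CRISPR/Cas9, and every mouse was on a C57BL/6J background. CD11b+ microglia came from male WT (n = 3) and male KI mice (n = 4), none of which carried the transgene, and from female A-/Pwt/wt (n = 7), A+/Pwt/wt (n = 4) and A+/Pki/ki mice (n = 4). Cortex came from females only, with 1 A-/Pwt/wt, 4 A+/Pwt/wt and 4 A+/Pki/ki libraries. Among the libraries analysed here there was no female KI group without the transgene and no male group with it, so sex and transgene cannot be told apart between the male and the female knock-in comparisons. The column names tag male libraries b1, female A+ libraries b2 and female A-/Pwt/wt libraries b3, so in CD11b+ microglia this tag cannot be told apart from the transgene either.

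TLRs recognise microbial and endogenous molecules at the cell surface or in endosomes and signal through the adaptors Myd88 and Ticam1 to NF-kB and interferon regulatory factors. NLRs and Aim2 do so in the cytosol, and several of them assemble inflammasomes, in which the adaptor Pycard brings caspase-1 to cleave IL-1β, IL-18 and the pore former gasdermin D. In the brain these receptors are known mainly from microglia, and amyloid-β has been described as a stimulus of Cd14, Tlr2, Tlr4 and Nlrp3. PLCγ2 acts in microglia below Trem2 and other surface receptors, and the human P522R variant is associated with a lower risk of Alzheimer's disease.

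Libraries held 16.2 M to 25.1 M counts (megacounts) in CD11b+ microglia and 25.2 M to 43.1 M counts in cortex, and replicates differed beyond sampling noise in each group. Levels are given as CPM, counts scaled to the total of the library and by TMM within each table, and log2FC is the fitted log2 ratio of 2 groups, called where the adjusted p is under 0.05. All 12 microglia markers were detected in every group, with a summed level of 31093 to 32073 CPM in male WT, 19025 to 34119 in male KI, 14053 to 26303 in A-/Pwt/wt, 17340 to 27674 in A+/Pwt/wt and 19623 to 30296 CPM in A+/Pki/ki CD11b+ microglia. Oligodendrocyte markers (8 genes) were also high in these preparations, at 6945 to 64448 CPM in A+/Pki/ki and 20952 to 74260 CPM in A-/Pwt/wt libraries. Single libraries stood apart: A-/Pwt/wt mouse 223 and A+/Pwt/wt mouse 331 had the lowest microglia sums of their groups, and A+/Pki/ki mouse 335 had the lowest of its group together with 1853 CPM of 10 neutrophil markers, against 46.3 to 531 CPM in the other 3. Where leaving out any of these libraries changed the number of members called, the counts with and without it are given, with values for some of the members.

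Every member was more abundant in CD11b+ microglia than in cortex of A+/Pwt/wt mice, with no overlap between the 4 libraries of each, which was also true of 29% of the 16231 genes at 1 CPM or more in either. Of the 35 members in that set, 22 were at least 8 times higher in CD11b+ microglia than in cortex, against 7.48% of the 16231 genes, and with Tlr11, which stayed under 1 CPM in both, the number was 23 of 36. RNA came from dissociated cells on the first side and tissue homogenate on the other, and the tables were scaled separately, so these ratios are a description with no test. Per kilobase of exon, the chaperone Unc93b1, which carries the nucleic acid-sensing TLRs to endosomes, had the highest level at 217 CPM per kb, followed by the LPS co-receptor Cd14 at 138, the lipopeptide receptor Tlr2 at 48.2, the RNA sensor Tlr7 at 41.1 and gasdermin D (Gsdmd) at 32.8 CPM per kb. At the other end stood Tlr8 at 0.981, the NAIP partner Nlrc4 at 0.331 and the profilin receptor Tlr11 at 0.174 CPM per kb. The pair of LPS co-receptors lay far apart, with Ly96 (MD-2) at 5.85 CPM per kb.

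The ratio of cells to tissue spread widely over the members. Nlrp3, the sensor of the best known inflammasome, stood 29.1 times higher in CD11b+ microglia, Cd14 27.2 times, Gsdmd 25.8 times, Tlr2 25.2 times and Tlr9, the receptor for unmethylated CpG DNA, 24.5 times. The ubiquitin ligase Traf6 was only 1.34 times higher, Nlrc4 1.83 times, the kinase Irak1 2.44 times, the adaptor Ticam1 (TRIF) 3.21 times and the double-stranded RNA receptor Tlr3 3.50 times. Tlr3 was the TLR with the highest level in cortex, at 13.6, 15.1, 12.3 and 16.5 CPM in the 4 A+/Pwt/wt libraries, while Tlr7 reached 6.39 to 7.85 and Tlr2 4.78 to 7.78 CPM. Tlr8 and Tlr11 had 0 to 4 and 0 to 1 counts per A+/Pwt/wt cortex library, too few for a ratio, although both are among the 23.

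**Figure D1:**
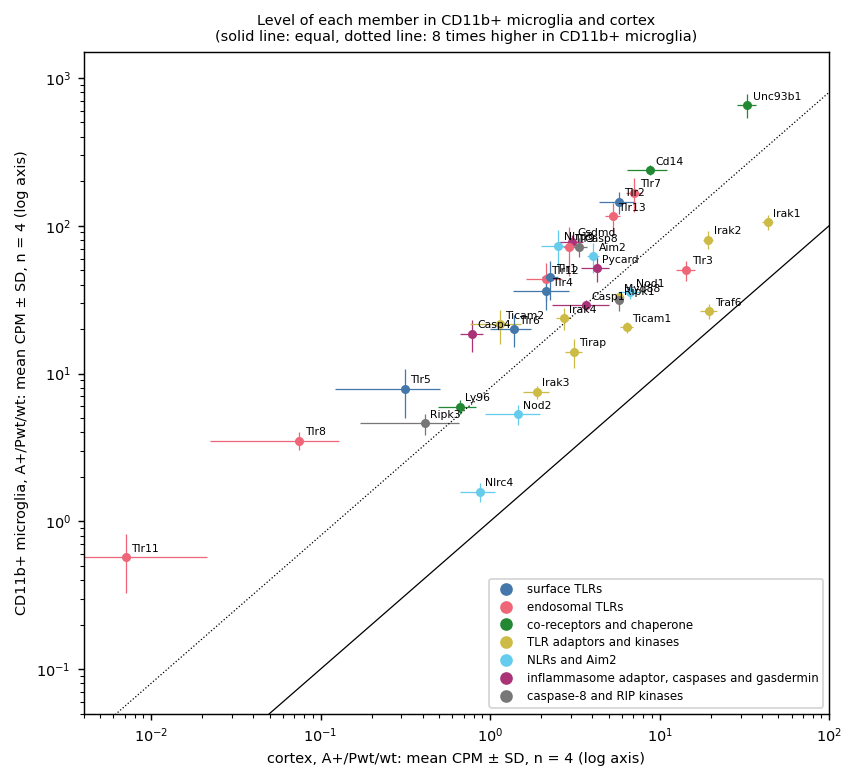
Mean CPM ± SD of the 36 members in cortex (x, log axis) and in CD11b+ microglia (y, log axis) of A+/Pwt/wt mice, n = 4 libraries each, coloured by role; the lower end of the cortex SD of Tlr11 is drawn cut off. All 36 points lie above the line of equal level, and Traf6, at 1.34 times, lies closest to it.

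The male comparison asks what the variant does in microglia of mice without amyloid. Of the 36 members, 8 were called lower in KI than in WT CD11b+ microglia and none was called higher, 22.2% of the list against 5.26% of the 16373 genes tested that were called lower. The 8 were the receptors Tlr1, Tlr5, Tlr3, Tlr9 and Tlr13, the cytosolic sensors Nlrp3 and Aim2, and the protease Casp8. The median log2FC over the 36 was -0.36, beside -0.0012 over all genes, and 34 members had a negative value. In GRCm38 (Gencode M21) the 8 genes span chr5:64924679-64933563 (Tlr1), chr1:182954788-182976044 (Tlr5), chr8:45395665-45411080 (Tlr3), chr9:106222598-106226883 (Tlr9), chrX:106143204-106160493 (Tlr13), chr11:59541568-59566956 (Nlrp3), chr1:173350879-173466040 (Aim2) and chr1:58795374-58847503 (Casp8), and the counts cover their exons, UTRs included. Counting did not use strand, and an exon of Tlr3 overlaps a gene on the opposite strand, so its reads cannot be told apart from those of that gene there. Exons of the members Myd88, Tirap, Irak2, Irak3, Irak4, Pycard and Ripk1 also overlap genes on the opposite strand. Those of Ticam2, Irak1 and Ripk1 overlap genes on the same strand. The study itself named Tlr3, Tlr9 and Casp8 for this comparison from these libraries, so their calls are not independent evidence. All 36 members were chosen with earlier results of these data known, so the share of the list called is not independent evidence either.

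Among the endosomal receptors, Tlr9 measured 126, 126 and 115 CPM in the 3 WT libraries and 79.7, 73, 73.5 and 60.1 CPM in the 4 KI libraries, log2FC -0.77 (SE 0.11, adjusted p = 0.00394). This was the smallest adjusted p of the list. Tlr13, a sensor of bacterial ribosomal RNA, measured 145, 138 and 132 CPM in WT and 86.6, 117, 80.8 and 83.2 in KI, log2FC -0.59 (SE 0.14, adjusted p = 0.0202), with KI mouse 104 above the other 3 KI libraries. Tlr3 measured 63.7, 64.5 and 67.8 CPM in WT and 46.5, 56.6, 49.2 and 43 in KI, log2FC -0.42 (SE 0.11, adjusted p = 0.0301). In these 3 genes each KI library lay below each WT library. Tlr7 did so too, at 169, 163 and 161 CPM in WT and 149.8, 129.9, 85.9 and 99.4 in KI, but did not pass (log2FC -0.50, SE 0.17, adjusted p = 0.0807). Tlr8, Tlr11 and Tlr12 overlapped between the groups.

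Of the surface receptors, the flagellin receptor Tlr5 measured 18, 21.3 and 18.5 CPM in WT and 9.22, 12.7, 12.5 and 11.1 in KI, log2FC -0.76 (SE 0.15, adjusted p = 0.0105). Tlr1, which pairs with Tlr2 to bind lipopeptides, measured 41.1, 48.6 and 40.5 CPM in WT and 24.6, 37.3, 28.4 and 29.7 in KI, log2FC -0.53 (SE 0.15, adjusted p = 0.0377). Both were lower in all 4 KI libraries, and KI mouse 104 was again the highest. The partner Tlr2 (log2FC -0.49, SE 0.20, adjusted p = 0.115) and the LPS receptor Tlr4 (log2FC -0.22, SE 0.17, adjusted p = 0.410) did not pass, nor did Cd14, Ly96 or Unc93b1, whose adjusted p lay at 0.18 and above.

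Of the cytosolic sensors, Nlrp3 measured 93.1, 105 and 82.8 CPM in WT and 68.4, 69.8, 62.3 and 52 in KI, log2FC -0.57 (SE 0.13, adjusted p = 0.0179). Aim2, the sensor of cytosolic DNA, measured 87.8, 93.2 and 90.1 CPM in WT and 50.4, 76.1, 67.9 and 59 in KI, log2FC -0.51 (SE 0.13, adjusted p = 0.0320). Nod1 and Nod2, receptors for peptidoglycan fragments, were the 2 members with a positive value, at log2FC 0.16 and 0.23 (adjusted p = 0.609 and 0.417). Casp8, the apical caspase that also restrains Ripk1 and Ripk3, measured 110.3, 110.2 and 111 CPM in WT and 81.6, 97, 76.3 and 77.5 in KI, log2FC -0.41 (SE 0.10, adjusted p = 0.0270). The WT libraries of Casp8 lay close together, and all 4 KI libraries lay below them. No adaptor or kinase below the TLRs was called, with a median log2FC of -0.19 over the 9 (Myd88 -0.05, Ticam2 -0.35, Irak2 -0.36). None of the inflammasome adaptor, caspases and gasdermin was called either, and Pycard varied widely in KI, at 56.5, 79.5, 41.7 and 10.7 CPM against 61.7, 60.2 and 70.2 in WT. In all, 13 members had KI libraries that lay entirely below WT, against 15.3% of all genes tested.

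**Figure D2:**
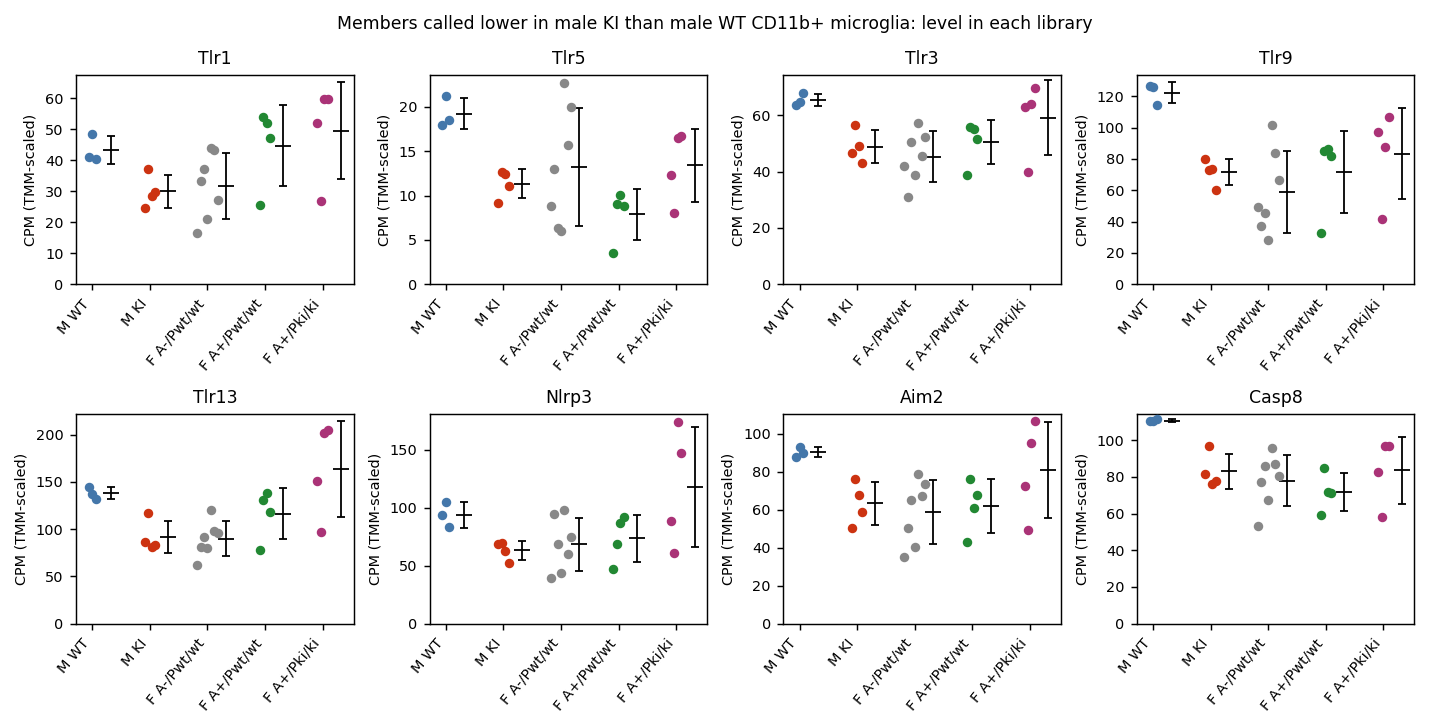
Level (CPM, TMM-scaled, linear axis from 0) in each CD11b+ library of the 8 members called lower in male KI than male WT mice, by group, with the group mean ± SD as a black bar. Every male KI point lies below every male WT point in each panel, and in the female groups the points overlap.

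The bases before the members' start sites were searched for letters of sites bound by factors known from myeloid and inflammatory genes. RefSeq promoter windows on GRCm38.p6 were matched to 29 of the 36 members, and the 250 bases before the start were searched on both strands. GAGGAAGT, the letters of a PU.1-type site, stood in 4 of the 29 members, Tlr1, Tlr11, Aim2 and Pycard, and in 2.44% of 32817 promoter windows. GGGNNTTCC, of an NF-kB-type site, stood in Tlr2, Nod2, Nlrp3 and Casp4 and in 4.97% of windows, and TGANTCA, of an AP-1-type site, in Tlr9 alone and in 6.75% of windows. GAAANNGAA, of an interferon-response type, stood in 5 members, none of the 8 called lower, and in 7.12% of windows. GGAAGT, the ETS core that lies within GAGGAAGT, stood in 11 members and in 19.7% of windows, and TATAAA, the TATA box, in 3 members and 12.4% of windows. These matches are letters in a window and were not tested as binding sites. Stretches of 120 bases are shown for the 4 called members that hold one, 5′ to 3′ on the gene's strand, with the matching letters in capitals. They lie in GRCm38.p6 at chr9:106222468-106222587 on the plus strand for Tlr9, chr5:64933569-64933688 on the minus strand for Tlr1, chr11:59541324-59541443 on the plus strand for Nlrp3 and chr1:173420431-173420550 on the plus strand for Aim2, and none overlaps an exon of its gene. The Nlrp3 letters are the reverse complement of the motif.
Tlr9: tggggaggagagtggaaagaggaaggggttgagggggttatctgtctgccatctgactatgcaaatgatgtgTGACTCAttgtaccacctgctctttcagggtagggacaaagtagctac
Tlr1: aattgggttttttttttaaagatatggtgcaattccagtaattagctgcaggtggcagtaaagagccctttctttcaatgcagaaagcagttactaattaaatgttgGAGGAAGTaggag
Nlrp3: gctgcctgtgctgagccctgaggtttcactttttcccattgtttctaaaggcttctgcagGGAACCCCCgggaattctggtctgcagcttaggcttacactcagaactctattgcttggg
Aim2: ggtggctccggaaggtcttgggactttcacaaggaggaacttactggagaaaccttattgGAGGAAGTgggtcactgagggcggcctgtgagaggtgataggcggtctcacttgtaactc

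Markers of other cells moved with the same groups. Neuron markers (12 genes) summed to 229 to 328 CPM in WT and 723 to 1679.7 in KI, oligodendrocyte markers to 18462 to 23307 and 26503 to 60459, and astrocyte markers (10 genes) to 836 to 1065 and 1526 to 2768 CPM. Mitochondrial genes took 3.97% to 5.02% of counts in WT and 7.40% to 12.8% in KI, so this share also separated the groups. All 12 microglia markers had a negative log2FC, with a median of -0.33, and 1 of them was called. KI mouse 104, the KI library with the most microglia marker signal at 34119 CPM, also had the highest level among the KI libraries for Tlr1, Tlr5, Tlr3, Tlr13, Nlrp3, Aim2 and Casp8, but not for Tlr9. Its microglia sum lay above the 31093 to 32073 CPM of WT, while all 8 called members lay below every WT library in it. Its neuron and oligodendrocyte sums, 920 and 38887 CPM, also lay above those of WT. Genes at least 8 times higher in CD11b+ microglia than in cortex of A+/Pwt/wt females, and at 10 CPM or more in these microglia, served as a second yardstick, members left out. They were chosen on a group that later comparisons also use, so they are not independent of it. The 692 of them tested had a median log2FC of -0.37, 88.4% were negative, and 24% were called lower, close to the members' own -0.36 and 22.2%. The part of these cells and of the mitochondrial share in the members' calls was not tested. In bulk RNA, fewer cells of a type and less RNA per cell cannot be told apart.

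Scaling the male libraries on those microglia-enriched genes moved the median of all genes to 0.37 and that of the members to 0.0068, with 19 members positive and 17 negative. Under this scaling 1 member was called lower and 1 higher, against 0.318% of all genes called lower and 28.3% called higher (5.26% and 11.1% when scaled on all genes). Tlr9 kept its call, at log2FC -0.40 (SE 0.12, adjusted p = 0.0355), while the adaptor Myd88 was called higher, at log2FC 0.31 (SE 0.10, adjusted p = 0.0488). Exons of Myd88 share 290 bases with the gene Acaa1a on the opposite strand, and without strand the reads there cannot be told apart. Tlr5 (log2FC -0.39, SE 0.17, adjusted p = 0.109), Tlr13 (log2FC -0.23, SE 0.10, adjusted p = 0.104) and Nlrp3 (log2FC -0.20, SE 0.11, adjusted p = 0.199) kept a negative value without passing, as did Tlr1 (log2FC -0.17, SE 0.14, adjusted p = 0.376) and Aim2 (log2FC -0.15, SE 0.14, adjusted p = 0.443). Tlr3 (log2FC -0.06, SE 0.10, adjusted p = 0.699) and Casp8 (log2FC -0.05, SE 0.09, adjusted p = 0.693) lay closest to 0 of the 8. Relative to all genes these 8 members were lower in KI, and relative to microglia-enriched genes Tlr9 was the receptor that passed the test. Leaving out 1 library at a time moved the count of called members between 1 (without WT mouse 101) and 19 (without KI mouse 104), and it stood at 2 when WT mouse 102 or 94 was dropped, at 3 to 5 when KI mouse 139, 136 or 84 was. The count over all genes moved too, to 7.63% called without WT mouse 101 (0.704% lower) and 33.5% without KI mouse 104 (13.3% lower), where 18 of the 19 members were lower. Without WT mouse 102 it was 5.52% (0.685% lower), without WT mouse 94 6.89% (0.608% lower), and without KI mouse 139 8.37% (1.76% lower). Without KI mouse 136 it was 11% (3.72% lower), and without KI mouse 84 15.8% (3.61% lower). Without WT mouse 102 or 94, or KI mouse 139, 136 or 84, every member called was lower.

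**Figure D3:**
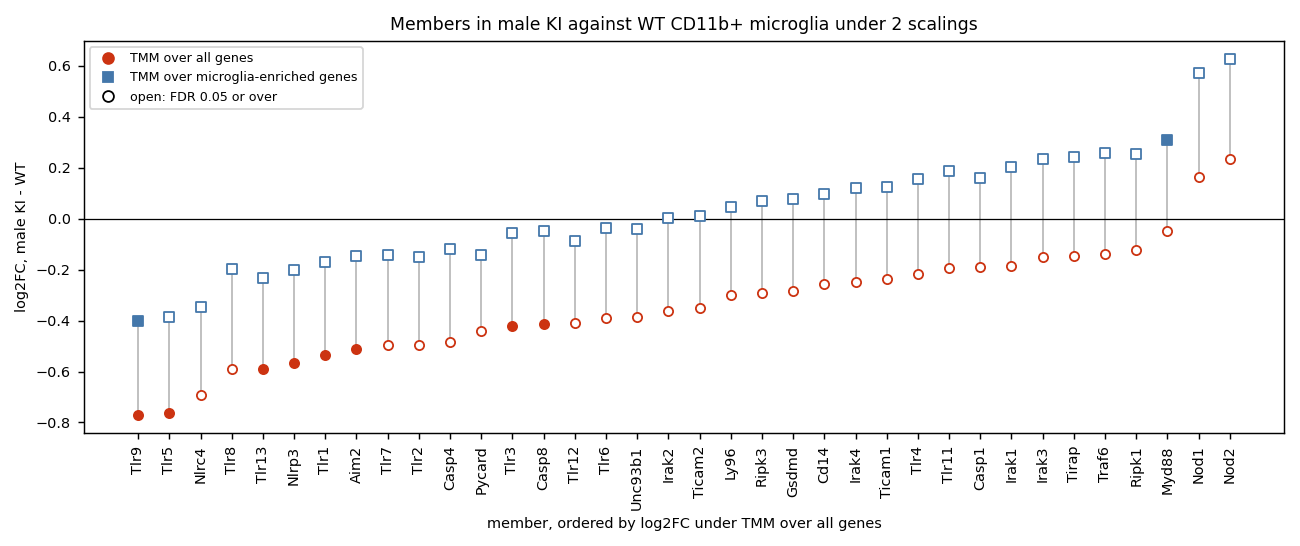
log2FC of the 36 members between male KI and WT CD11b+ microglia (y) under TMM over all genes (red circles) and over microglia-enriched genes (blue squares), ordered by the former; filled marks passed an adjusted p of 0.05. Each square lies above its circle, and Tlr9 is the only member filled under both.

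Other genes of these pathways are given by list, beside the 5.26% of all genes called lower and 11.1% called higher in males. Of 25 NF-kB, TAK1 and IRF genes below the TLRs, 3 were called lower, among them the NF-kB subunit Rel (log2FC -0.52, SE 0.09, adjusted p = 0.00855) and the IKK regulatory subunit Ikbkg (log2FC -0.35, SE 0.10, adjusted p = 0.0379). Of 12 negative regulators of TLR signalling, 3 were called lower and 1 higher: the deubiquitinase Tnfaip3 (A20) fell (log2FC -0.91, SE 0.19, adjusted p = 0.0133), and Sigirr, an inhibitory receptor that shares the TIR domain of the TLRs, rose (log2FC 0.76, SE 0.21, adjusted p = 0.0368). Of 19 tested among 22 other NLR, inflammasome and pyroptosis genes, 5 were called lower, led by the NLRs Nlrp1b (log2FC -1.12, SE 0.15, adjusted p = 0.00385) and Naip6 (log2FC -0.93, SE 0.11, adjusted p = 0.00374). Naip genes are near-identical copies, and only uniquely mapped reads were counted, so reads from sequence they share may be missing. Of 12 necroptosis and apoptosis partners of Casp8, 1 was called, its inhibitory homologue Cflar (log2FC -0.42, SE 0.10, adjusted p = 0.0197). The medians of these lists were -0.23, -0.26, -0.48 and -0.22, and that of the microglia-enriched genes was -0.37.

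On the APP/PS1 background, the comparison of A+/Pki/ki with A+/Pwt/wt females asks what the variant does in microglia that face amyloid. No member was called, and no gene was called among 17039 (0%) by edgeR, with 575 genes and 0 members below 0.05 before adjustment, and 8 genes but 0 members were called by DESeq2. The values lay the other way from those in males, with 33 of 36 members positive and a median log2FC of 0.18 beside 0.0043 over all genes. The 695 microglia-enriched genes had a median of 0.19, and all 12 microglia markers were positive. The widest differences with a mean of at least 5 CPM were those of Tlr5, Cd14, Nlrp3 and Tlr2. Cd14 measured 213, 253, 232 and 255 CPM in A+/Pwt/wt and 296, 216, 655 and 401 in A+/Pki/ki libraries, log2FC 0.65 (SE 0.30, adjusted p = 0.853). Nlrp3 measured 46.7, 68.7, 86.4 and 91.7 and 88.6, 61.1, 174 and 147 CPM, log2FC 0.62 (SE 0.34, adjusted p = 0.853). Mice 394 and 405 carried the high values of both genes, and A+/Pki/ki mouse 335 lay within the A+/Pwt/wt range. The same mice had the lowest oligodendrocyte sums, 6945 and 7121 CPM against 21938 to 50847 in A+/Pwt/wt, the lowest astrocyte sums, 701 and 546 against 1301 to 3118, the lowest endothelial sums (8 genes), 795 and 651 against 1150.3 to 2139.9, and the highest microglia sums, 29921 and 30296 CPM, and the part of this in the values was not tested. Tlr2 measured 108, 158, 158 and 156 and 163, 124, 298 and 239 CPM, log2FC 0.44 (SE 0.26, adjusted p = 0.853), and Tlr5 3.58, 9.01, 10.01 and 8.88 and 12.4, 8.06, 16.4 and 16.7 CPM, log2FC 0.71 (SE 0.34, adjusted p = 0.853). No member had groups that did not overlap, against 2.09% of genes with A+/Pki/ki entirely higher.

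The spread within these groups was wide, and the library of lowest score had the lowest microglia marker sum in each. The list score, the mean log2 CPM of the 36 members, was 4.55, 5.07, 4.92 and 4.87 in the A+/Pwt/wt libraries and 5.19, 4.63, 5.33 and 5.29 in the A+/Pki/ki libraries, against 5.20, 5.27 and 5.21 in male WT and 4.93, 5.00, 4.79 and 4.73 in male KI. In A+/Pwt/wt mouse 331 and A+/Pki/ki mouse 335, the lowest of their groups, Tlr9 stood at 32.7 and 41.6 CPM, against 82 to 107 CPM in the other 6 libraries. Neuron markers summed to 2332 CPM in mouse 335 and 198 to 598 CPM in the other A+/Pki/ki libraries. Without mouse 335 the difference of the mean score rose from 0.26 to 0.42, and still no member was called, nor any of 16825 genes (0%). By edgeR, 27.3% of all genes then had an unadjusted p under 0.05, against 3.37% with that library. Scaled on microglia-enriched genes with all libraries, 17 members were positive and 19 negative, with a median of -0.012 beside -0.18 over all genes. No member was called under this scaling, nor any of 17039 genes (0%).

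**Figure D4:**
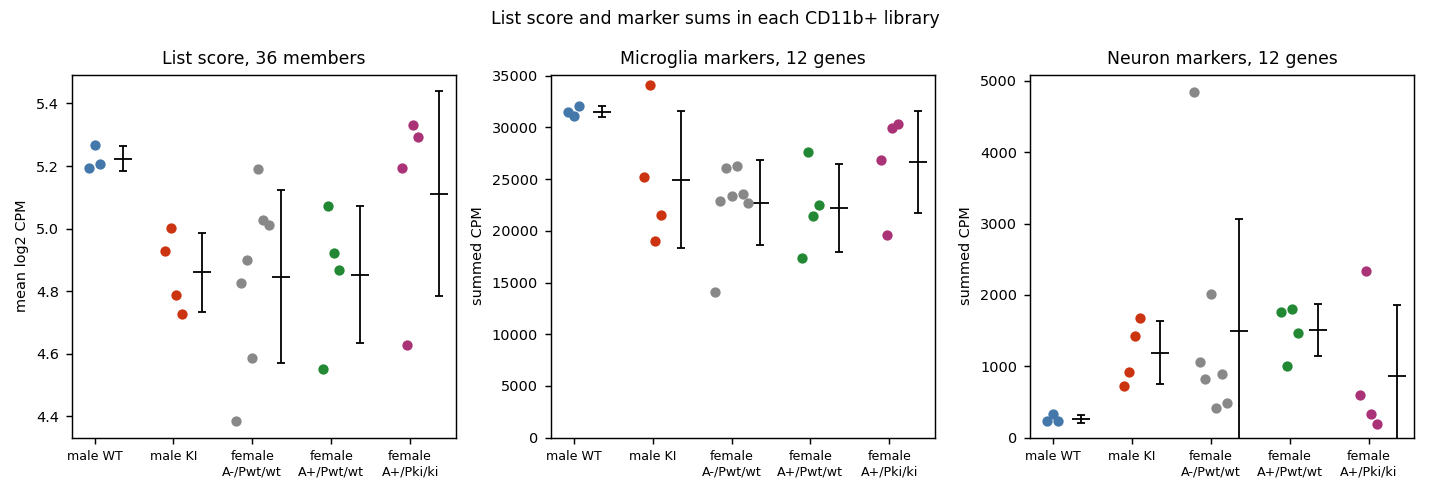
List score of the 36 members (left, mean log2 CPM), and summed CPM of 12 microglia markers (middle) and 12 neuron markers (right) in each CD11b+ library by group, with the mean ± SD as a black bar. The 3 male WT libraries lie at 5.20, 5.27 and 5.21 in score and the 4 male KI libraries below them, while the female groups overlap.

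The knock-in effect in males minus that in A+ females was tested directly in 1 fit of both tables, across groups that differ in sex, transgene and column tag at once. No member passed, nor any of 17619 genes (0%) by edgeR, with 14 members and 4664 genes below 0.05 before adjustment. DESeq2 called 1150 genes (6.53%, with 2.03% lower) and 2 members, Tlr5 and Tlr13, both lower. The difference was negative for 34 members, with a median of -0.55 beside -0.52 for microglia-enriched genes. Among the 8 genes called in males it ranged from -1.44 for Tlr5 (SE 0.40, adjusted p = 0.143) and -1.15 for Nlrp3 (SE 0.40, adjusted p = 0.143) to -0.54 for Casp8 (SE 0.21, adjusted p = 0.151). Tlr13 (-0.99), Tlr9 (-0.90), Aim2 (-0.81), Tlr1 (-0.59) and Tlr3 (-0.56) lay between them, at adjusted p from 0.143 to 0.281. Without A+/Pki/ki mouse 335, 21 members were called, all negative, beside 35.4% of all genes (19.9% higher, 15.6% lower), Tlr5 at log2FC -1.70 (adjusted p = 0.00436) and Nlrp3 at log2FC -1.45 (adjusted p = 0.00643) among them. Without that library and scaled on microglia-enriched genes, 3 members were called higher and 3 lower, beside 49.6% and 0.989% of all genes, and the median of the members was -0.012 while that of all genes moved to 0.69.

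A+/Pwt/wt and A+/Pki/ki were each compared with the same 7 A-/Pwt/wt libraries. Because these controls are shared, the values are given side by side and not set against each other. Both comparisons differ in the transgene and in the column tag. The A+/Pki/ki comparison differs in the P522R variant as well, so transgene and variant cannot be told apart in it. No member was called in either, against 1.29% of 17355 genes for A+/Pwt/wt (1.01% higher, 0.282% lower) and 1.64% of 17446 for A+/Pki/ki (1.35% higher, 0.287% lower). At an unadjusted p under 0.05, edgeR had 2 members for A+/Pwt/wt, beside 10.1% of all genes, and 9 for A+/Pki/ki, beside 15.2%. DESeq2 called 0 and 2 members, beside 3.62% and 5.41% of all genes (2.11% and 3.5% higher), and the 2 members were higher. The median log2FC of the members was 0.05 and 0.29, beside 0.05 and 0.30 for microglia-enriched genes and -0.034 and -0.015 for all genes. Of the microglia-enriched genes, which were chosen on levels in A+/Pwt/wt, 7.64% and 9.8% were called higher and 1.15% and 0.432% lower.

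Tlr2 ranged from 58.1 through a median of 106 to 129.5 CPM in A-/Pwt/wt libraries and measured 108, 158, 158 and 156 CPM in A+/Pwt/wt, log2FC 0.47 (SE 0.20, adjusted p = 0.417). For A+/Pki/ki, at 163, 124, 298 and 239 CPM, it was log2FC 0.96 (SE 0.25, adjusted p = 0.0818). The A-/Pwt/wt and A+ libraries overlapped in both. Tlr7 ranged from 86.3 through a median of 127 to 156 CPM in A-/Pwt/wt and measured 106, 203, 195 and 167 in A+/Pwt/wt, log2FC 0.45 (SE 0.22, adjusted p = 0.524). Tlr1 ranged from 16.4 through a median of 33.4 to 44 CPM and measured 25.5, 54.1, 51.9 and 47.3, log2FC 0.50 (SE 0.28, adjusted p = 0.615). Both receptors were low in A+/Pwt/wt mouse 331. Without this library Tlr2, Tlr7 and Tlr1 stood at log2FC 0.58, 0.60 and 0.69 (adjusted p = 0.236, 0.202 and 0.306), and without A-/Pwt/wt mouse 223 at 0.35, 0.36 and 0.38 (adjusted p = 0.206, 0.439 and 0.511). None of the 3 receptors passed in either fit. Tlr5 had the widest difference of the A+/Pwt/wt comparison among members at 5 CPM or more, and a negative one, from 6.00 through a median of 13 to 22.7 CPM in A-/Pwt/wt against 3.58, 9.01, 10.01 and 8.88, log2FC -0.74 (SE 0.41, adjusted p = 0.615). The A-/Pwt/wt values themselves were spread, with mice 242, 243 and 245 highest at 22.7, 15.7 and 20.02 CPM and the other 4 at 6.00 to 13 CPM. Tlr8, singled out after its values were seen, was highest in the same mice, at 8.65, 8.37 and 9.83 CPM in those 3 mice and 1.89 to 3.05 CPM in the other 4. These 3 mice also had the lowest oligodendrocyte sums of the group, 21631, 30858 and 20952 CPM against 34635 to 74260, and the lowest astrocyte sums, 826, 1448 and 1114 against 1744 to 3689 CPM, and the part of this was not tested.

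For A+/Pki/ki against A-/Pwt/wt, the smallest adjusted p was that of Tlr13, which ranged from 61.7 through a median of 91.4 to 121 CPM in A-/Pwt/wt and measured 151, 97.1, 202 and 205 in A+/Pki/ki, log2FC 0.87 (SE 0.21, adjusted p = 0.0690). Cd14 ranged from 105 through a median of 206 to 274 CPM and measured 296, 216, 655 and 401, log2FC 0.90 (SE 0.30, adjusted p = 0.175). Nlrp3 ranged from 39 through a median of 68.9 to 97.9 CPM and measured 88.6, 61.1, 174 and 147, log2FC 0.78 (SE 0.31, adjusted p = 0.258). In these 3 genes mice 394 and 405 lay above the highest A-/Pwt/wt library and mouse 335 lay inside the A-/Pwt/wt range. Mice 394 and 405 are the libraries of lowest oligodendrocyte, astrocyte and endothelial sums given above. Mouse 244 had 27492 CPM of oligodendrocyte markers and 1496 CPM of astrocyte markers. The part of these sums in the values was not tested. Without mouse 335, 6 members passed, Tlr2 (log2FC 1.13, adjusted p = 0.0160), Cd14 (log2FC 1.09, adjusted p = 0.0439) and Tlr13 (log2FC 1.04, adjusted p = 0.00674) among them, beside 6.35% of all genes (4.08% higher). Without mouse 335 and A-/Pwt/wt mouse 236, which had 690.2 CPM of neutrophil markers, 4 passed, all higher, beside 4.86% of all genes (3.12% higher). Scaled on microglia-enriched genes, Tlr13 alone was called, at log2FC 0.52 (SE 0.11, adjusted p = 0.0495), beside 1.04% of all genes (0.631% higher). The median of the members then went to -0.052 while that of all genes went to -0.33. Of the 71 other pathway genes, 1 was called in both comparisons, the TLR4-inhibiting homologue Cd180, at log2FC 1.16 (SE 0.24, adjusted p = 0.0342) for A+/Pwt/wt and log2FC 1.20 (SE 0.24, adjusted p = 0.0296) for A+/Pki/ki.

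**Figure D5:**
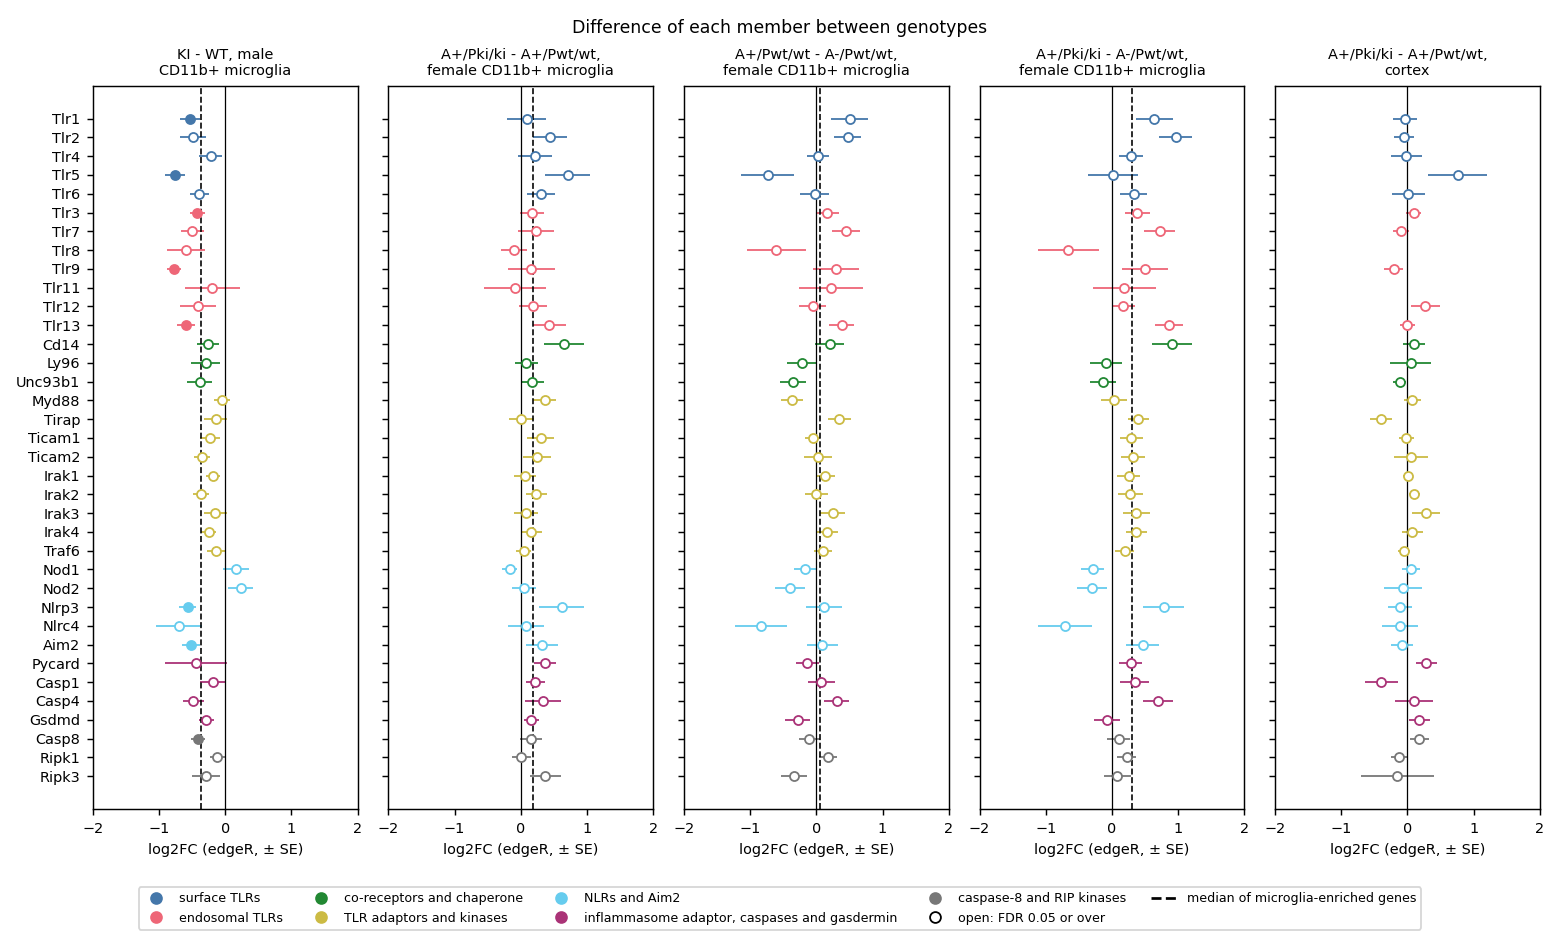
log2FC ± SE (edgeR) of each member in 5 comparisons, one per panel, coloured by role, with filled points for an adjusted p under 0.05 and a dashed line at the median of microglia-enriched genes (not drawn for cortex). Filled points stand in the male panel alone, and in the 4 CD11b+ panels the members lie around the dashed line.

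In temporo-occipital cortex, no member was called between A+/Pki/ki and A+/Pwt/wt, nor any of 18640 genes (0%) by edgeR, with 1 member and 514 genes at an unadjusted p under 0.05. DESeq2 called 11 genes and no member. Of the 36 members, 34 had enough counts to be tested, Tlr8 and Tlr11 did not, and 17 were positive and 17 negative, with a median log2FC of 0.00018 beside -0.0018 over all genes. Ripk1, the kinase held in check by Casp8, measured 5.38, 6.09, 5.89 and 5.55 CPM in A+/Pwt/wt and 4.84, 5.86, 5.47 and 4.73 in A+/Pki/ki, log2FC -0.13 (SE 0.12, adjusted p = 0.9997). Unc93b1 measured 37.1, 33.8, 33.8 and 27 and 30.04, 33.7, 29.6 and 28.3 CPM, log2FC -0.11 (SE 0.10, adjusted p = 0.9997). These were the widest differences at 5 CPM or more, together with Irak2 (log2FC 0.10, SE 0.08, adjusted p = 0.9997) and Tlr7 (log2FC -0.10, SE 0.12, adjusted p = 0.9997). The member at an unadjusted p under 0.05 was the adaptor Tirap, singled out after its values were seen, at 2.77, 3.61, 2.91 and 3.21 CPM in A+/Pwt/wt and 2.77, 2.33, 1.97 and 2.45 in A+/Pki/ki, log2FC -0.40 (SE 0.17, adjusted p = 0.9997). It was the 1 member whose libraries did not overlap, by 2.7727 against 2.7676 CPM at the closest pair, beside 0.901% of genes with A+/Pki/ki entirely lower. Exons of Tirap overlap genes on the opposite strand, where reads cannot be told apart. The 8 genes called in male microglia lay between -0.21 (Tlr9) and 0.76 (Tlr5, at 0.329, 0.241, 0.115 and 0.569 CPM in A+/Pwt/wt and 0.510, 0.834, 0.328 and 0.552 in A+/Pki/ki) in cortex. List scores were 1.51 ± 0.03 (SD, n = 4) in A+/Pwt/wt and 1.56 ± 0.05 (SD, n = 4) in A+/Pki/ki.

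The 1 cortex library without the transgene has no replicate, so the following values compare libraries and not genotypes. Among the 33 members with enough counts, 22 were lower in this library than in all 4 A+/Pwt/wt libraries, against 22.1% of 17830 genes. The A+/Pwt/wt mean was at least 1.5 times this library for 13 members, against 9.18% of genes, and the median ratio was 1.42 beside 1.01 over all genes and 1.86 over 12 microglia markers, whose sum was 484 CPM here and 913 to 1118 CPM in A+/Pwt/wt. Tlr2 stood at 1.10 CPM (46 counts) against 5.24, 7.78, 5.24 and 4.78 CPM in A+/Pwt/wt, a ratio of 5.25. Cd14 stood at 2.05 CPM (86 counts) against 6.97, 12, 8.95 and 7.08, a ratio of 4.27, and Tlr1 at 0.620 CPM (26 counts) against 2.64, 2.17, 2.14 and 2.13, a ratio of 3.66. The 3 widest ratios among the 33 were those of lipopeptide receptors and the LPS co-receptor, above the 1.86 of the microglia markers. Traf6 (0.995), Nlrc4 (0.985) and Nod2 (1.02) were near equal.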

How the data were processed

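PolyA RNA of 22 CD11b+ and 9 cortex samples was sequenced as paired reads. The authors trimmed reads with Trimmomatic 0.39, aligned them with STAR 2.7.9a to GRCm38 and counted uniquely mapped reads per Gencode gene with featureCounts 2.12.0, without strand, and the deposited count tables hold these raw counts. The deposited log2-scale values are the authors' variance-stabilized counts from DESeq2, used here only in an alternative. Groups came from the sample labels. Counts were tested with edgeR 4.0.16 (R 4.3.3) by its quasi-likelihood F test, two-sided, after TMM scaling, among genes that reached 10 counts in 3 or more fitted libraries, with Benjamini-Hochberg adjustment over all genes and a threshold of 0.05, without covariates. SEs were taken as the absolute log2FC over the square root of F. The test was also run on simulated counts, with a single spread for all genes and planted differences wider than those of the called members. That run therefore cannot show how the test does on differences of their size. Alternatives were DESeq2 1.42.0 (Wald test, or its size factors), limma 3.58.1 on the variance-stabilized values, no filter or filterByExpr, all groups in 1 fit, TMM over microglia-enriched genes, and leaving out each library. Members called in a comparison were named, or otherwise those with the largest absolute log2FC and a mean of at least 5 CPM until 4 were named, and the difference between both knock-in effects was printed for members called in either. The members and lists were chosen with earlier results of these data known. Libraries are single mice, and P522R is a point variant, so gene counts do not check the genotype labels. RefSeq promoters on GRCm38.p6 were used for sequences.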

Additional observations from a re-analysis of the deposited data

Results flagged for a closer look

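In groups of 4 to 7 libraries, values were flagged where 1 library lay far from the rest relative to the range (Dixon's test at 95%). Of 90 groups of values tested, 8 were flagged, and chance alone gives about 1 in 20, or 4.5. In CD11b+ microglia, A+/Pwt/wt mouse 331 was low for Tlr2, at 108.2 CPM against 155.5 to 158.4 in the other 3, and for Tlr9, at 32.7 against 82.03 to 86.3 CPM. A-/Pwt/wt mouse 223 was low for Tlr2, at 58.1 CPM against 100.6 to 129.5 in the other 6, and for Unc93b1, at 500.7 against 797 to 1001 CPM. These libraries also had the lowest microglia marker sum of their group, 17340 and 14053 CPM, and the part of this in the values was not tested. Male KI mouse 104 was high for Tlr13, at 117.5 CPM against 80.8 to 86.6 in the other 3, and had the highest microglia marker sum of its group, 34119 CPM.

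In A+/Pwt/wt cortex, mouse 236 was high for Tlr1, at 2.64 CPM against 2.13 to 2.17, and low for Tlr9, at 2.55 against 3.01 to 3.07 CPM. Mouse 257 was high for Tlr2, at 7.78 CPM against 4.78 to 5.24.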

How the results depend on the processing

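None of the named members' values called by the test changed sign under any alternative. In males, 8 members were called, 6 to 10 under the other tests, filters and size factors, 2 when scaled on microglia-enriched genes, 9 (7 of them higher) under that scaling without KI mouse 104, and 1 to 19 when 1 library was left out. For A+/Pki/ki with A-/Pwt/wt, 0 were called, but 2 by DESeq2, 1 under microglia-enriched scaling and 2 under that scaling without mouse 335. It was 2 with all groups in 1 fit, 4 without mice 335 and 236, and 0 to 6 when 1 library was left out. Every member called in these alternatives was higher. For the difference between both knock-in effects, 0 were called, but 2 by DESeq2, 6 under microglia-enriched scaling without mouse 335, and 0 to 21 when 1 library was left out. The other 3 comparisons called 0 members under each alternative run, beside 0% to 3.62% of all genes. The share of all genes called moved as well, in males from 5.52% to 33.5% (0.608% to 13.3% lower) when 1 library was left out. It was 10.4% to 22.7% (1.97% to 7.95% lower) under the other tests, filters and size factors, where all members called were lower. Scaled on microglia-enriched genes it was 28.6% (28.3% higher, 0.318% lower). Under that scaling without KI mouse 104 it was 53.1% (52.2% higher, 0.899% lower). For A+/Pki/ki with A-/Pwt/wt it was 5.41% by DESeq2 (3.5% higher) and 2.86% with all groups in 1 fit (2.21% higher). With 1 library left out it was 0.331% to 6.35% (0.331% to 4.08% higher). Under microglia-enriched scaling without mouse 335 it was 5.07% (0.989% higher, 4.08% lower). For the difference of both effects it was 6.53% by DESeq2 (2.03% lower), where both members called were lower. Under microglia-enriched scaling without mouse 335 it was 50.5% (49.6% higher, 0.989% lower). The cause of these shifts was not tested. Alternatives that combine a scaling with a left-out library, or leave out mice 335 and 236, were chosen after seeing the data. The list score difference in males was -0.36, and -0.41 to -0.32 when 1 library was left out. In cortex it was 0.051, and 0.0097 over members with a mean of at least 1 CPM. No paired analysis was possible because the labels number mice, and the groups compared share no number; 236 stands on a CD11b+ A-/Pwt/wt and a cortex A+/Pwt/wt library. In cortex, 29 of 36 members reached a mean of 1 CPM, and depth limits Tlr5, Tlr8, Tlr11, Ly96, Nlrc4, Casp4 and Ripk3, which did not.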
